A study of Mus musculus with 8 samples.

Results

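The collagen genes were taken as every gene symbol made of Col, a number, the letter a and a further number that was listed in all 8 expression tables, and there were 44 of them among 22725 symbols. Rows that shared a symbol were summed. By structure, 8 were placed with the fibrillar collagens, 8 with the basement membrane collagens and 7 with the collagens of cartilage. The other 21 fell into beaded filament and short chain types (8), fibril-associated (FACIT) types other than type IX (6), transmembrane types (4) and the rest (3). The symbol Col4a3bp, which names a lipid transfer protein, was not a member.

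Collagens are secreted proteins whose chains wind around each other into a triple helix. Fibrillar collagens are cut outside the cell and packed into the fibres of connective tissue, basement membrane collagens form sheets under epithelia and around vessels, and fibril-associated types coat the fibres. In the developing brain, fibrillar chains are made mainly by fibroblasts of the meninges and of large vessels, type IV chains by endothelial cells, pericytes and meningeal cells, and Col2a1, the chain of the main cartilage fibril, also outside cartilage, in the notochord and in neural epithelium.

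RNA came from dissected mouse embryonic hypothalamus, and the genotypes were Foxd1-mutant and Wild-type. Foxd1 encodes a forkhead transcription factor, and the study asked what its loss does to hypothalamic neurons. Foxd1-mutant and Wild-type tissue each gave 1 library at E12.0, 1 at E12.5 and 2 at E17.5, by the sample source. The growth protocol names only E12.5 and E17.5, so whether E12.0 and E12.5 were separate collections is not settled. RNA was pooled over embryos for every library, from 8 Foxd1-null and 10 control embryos in all, and the labels name no allele, strain or litter. The labels describe the controls in wording that also mentions the mutant, so genotype was taken from the sample source. The E17.5 libraries are numbered replicates 1 and 2, and nothing in the labels says that they came from separate litters, so p-values measure the spread between these libraries only.

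Levels are in FPKM, fragments scaled to the length of the transcript and to the depth of the library, which can be set side by side between genes. Below, early values are given for E12.0 and then E12.5, and E17.5 values for replicate 1 and then replicate 2. Foxd1 had 2.77 and 2.50 FPKM in mutant early libraries against 25.0 and 30.3 FPKM in wild-type early libraries, and 0.396 and 0.230 FPKM in mutant E17.5 libraries against 3.90 and 1.96 FPKM in wild-type E17.5 libraries. It was lower in the mutant library at each early stage, and at E17.5 the genotypes did not overlap. Between 11572 and 13219 symbols reached 1 FPKM per library. Depth, read from the steps between low FPKM values, came to between 30.3 and 43.5 M fragments at E17.5, and it was uncertain at the early stages, where the same reading gave between 4.04 and 56.2 M. All 10 markers of hypothalamus that were looked up reached 1 FPKM in every library. At E17.5, 9 of the 10 had lower values in mutant tissue, with a median log2 difference of -0.36, and all 8 telencephalic markers had higher ones, with a median of 0.64. Of all 13235 genes tested at E17.5, 6475 had lower and 6751 higher values in mutant tissue. Of these 18 markers 0 passed the adjusted threshold of the limma test described below, where 0.00756% of all genes did. An unadjusted p under 0.05 was found for 6 of the 10 and 4 of the 8, beside 5.7% of all genes. The part of these markers in the E17.5 collagen differences was not tested. The E17.5 mutant library of replicate 2 stood apart in the telencephalic markers, with a sum of 82.1 FPKM against 35.6 FPKM in the other mutant E17.5 library and 29.8 FPKM in each wild-type one. Expression tables of the early stages and of E17.5 were made separately, so levels across stages are described and not tested.

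The collagen signal was several times larger at E17.5 and differently composed. Summed over the 44 genes it was 114 and 157 FPKM in mutant early libraries and 107 and 142 FPKM in wild-type early libraries, against 471 and 353 FPKM in mutant E17.5 libraries and 449 and 333 FPKM in wild-type E17.5 libraries. Fibrillar chains made up 17.1% to 21.1% of that sum in the 4 early libraries and 39.5% to 46.6% in the 4 E17.5 libraries. Basement membrane chains made up 44.7% to 48.6% early and 22.3% to 26.5% at E17.5, and cartilage chains 18.5% to 28.2% early and 9.81% to 14.2% at E17.5. These ranges did not overlap between the ages for any of the 3 classes. The beaded filament and short chain types, with 0.787% to 2.20% early, had 7.90% to 8.85% at E17.5.

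**Figure D1:**
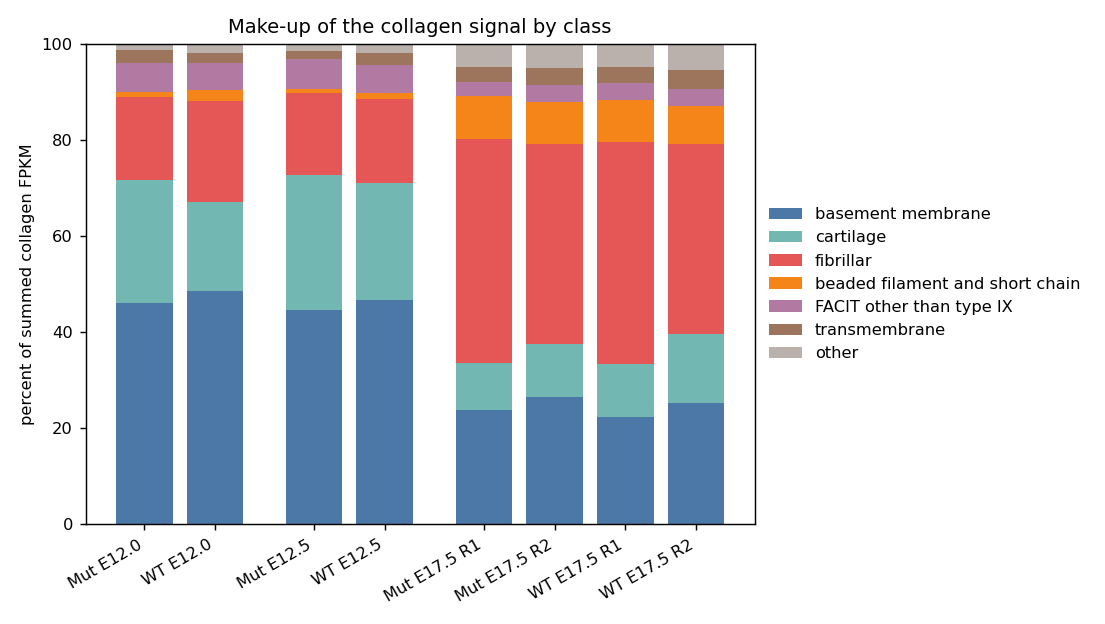
Share of the summed collagen FPKM (percent, vertical axis) that each structural class made up in each library, as stacked bars for the 8 libraries, with mutant (Mut) left of wild-type (WT) at each stage. Fibrillar chains took 17.1% to 21.1% of the sum in the 4 early libraries and 39.5% to 46.6% in the 4 E17.5 libraries, and cartilage chains took 25.6% (E12.0) and 28.2% (E12.5) in mutant against 18.5% and 24.4% in wild-type.

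Of the 44 collagens, 30 had a mean of at least 1 FPKM at E17.5 and 18 at the early stages. The 14 that stayed under that mean at both ages were Col4a3, Col4a4, Col5a3, Col6a4, Col6a5, Col6a6, Col7a1, Col10a1, Col13a1, Col17a1, Col19a1, Col20a1, Col24a1 and Col28a1, and the highest level any of them had in any library was 1.16 FPKM. Among them are the chains of the kidney type IV network (Col4a3 and Col4a4), of the anchoring fibrils of skin (Col7a1) and of hypertrophic cartilage (Col10a1). Of the 27 collagens that averaged 1 FPKM or more across the 8 libraries, 21 had all 4 E17.5 values above all 4 early values, where 45.4% of all genes tested did so. The reverse held for 2 of 27, Col18a1 and Col22a1, against 17.4% of all genes tested. This filter spans both ages, so a gene near 0 early could enter it only by being high at E17.5, which favours the first order. Col4a6, Col6a1, Col6a2, Col6a3, Col8a1, Col8a2, Col12a1, Col15a1 and Col16a1 had early means under 1 FPKM and entered in that way. Both shares of all genes were taken with the same filter.

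**Figure D2:**
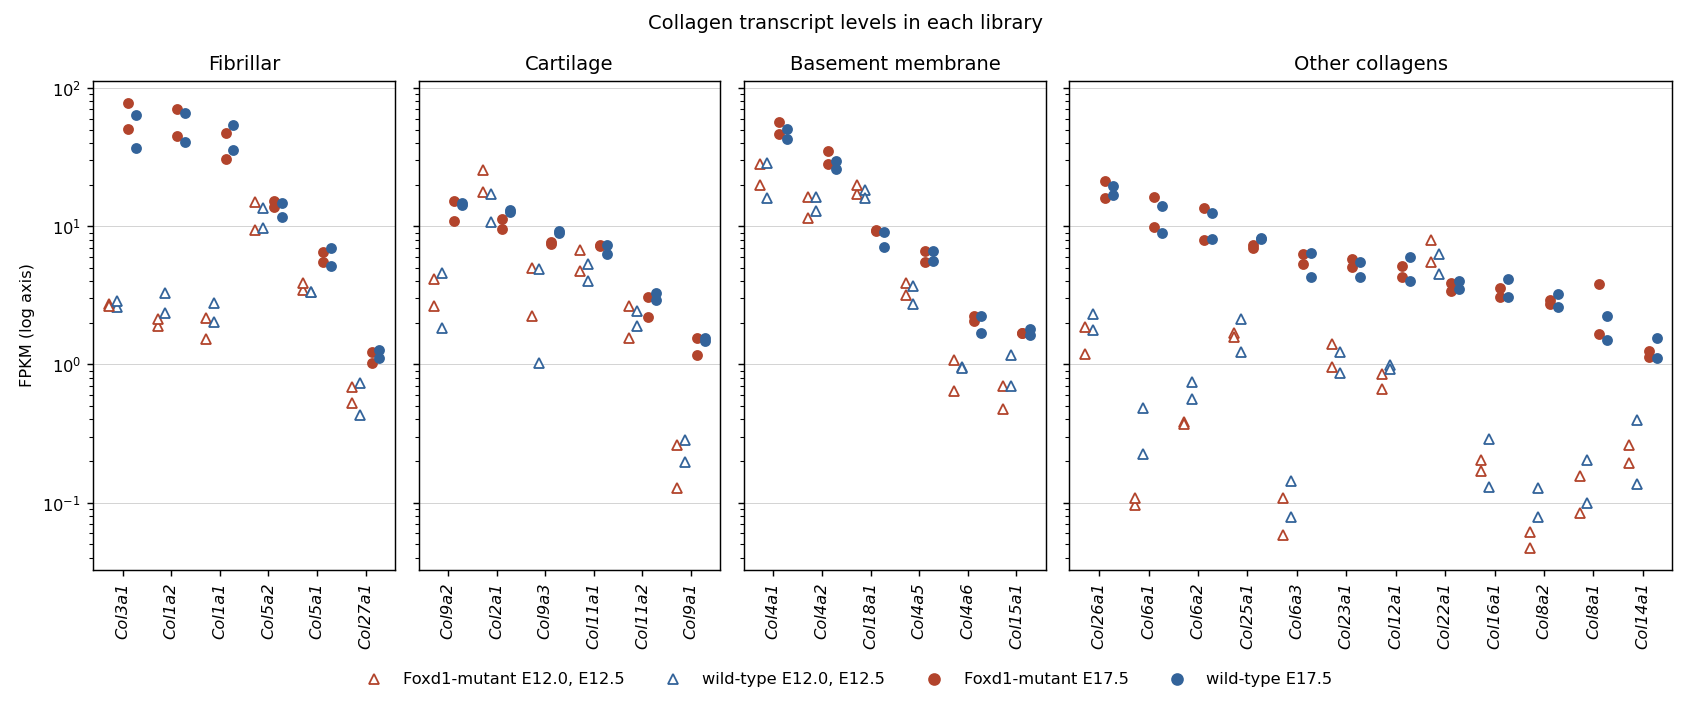
Level of each of the 30 collagens with a mean of at least 1 FPKM at E17.5 (FPKM, log axis) in every library, in panels by class. Open triangles are the early libraries and filled circles the E17.5 libraries, red for Foxd1-mutant and blue for wild-type. The widest steps between the ages are in Col6a1, Col6a3 and Col8a2, while all E17.5 points of Col18a1 and Col22a1 lie below all their early points.

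The interstitial fibril chains were low at the early stages and among the most abundant collagens at E17.5. Col3a1, the chain of the pliable type III fibres of vessel walls and meninges, had 2.72 and 2.63 FPKM in mutant early libraries against 2.58 and 2.89 FPKM in wild-type early libraries. At E17.5 it had 77.6 and 50.7 FPKM in mutant libraries against 63.7 and 36.6 FPKM in wild-type libraries. The E17.5 mean was 21.1 times the early mean, and within each age the genotypes overlapped.

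Col1a2, a chain of the type I fibril, had 1.88 and 2.13 FPKM in mutant early libraries against 3.28 and 2.36 FPKM in wild-type early libraries, and 71.0 and 44.7 FPKM in mutant E17.5 libraries against 66.2 and 40.7 FPKM in wild-type E17.5 libraries. Its partner chain Col1a1 had 1.53 and 2.16 FPKM in mutant early libraries against 2.78 and 2.04 FPKM in wild-type early libraries, and 47.3 and 30.7 FPKM in mutant E17.5 libraries against 53.8 and 35.5 FPKM in wild-type E17.5 libraries. Per length, Col1a2 over Col1a1 was 1.502 and 1.45 in mutant E17.5 libraries against 1.23 and 1.15 in wild-type E17.5 libraries, and Col3a1 over Col1a1 was 1.64 and 1.65 in mutant against 1.18 and 1.03 in wild-type. Both ratios were thus higher in both mutant libraries at E17.5. At the early stages Col1a2 over Col1a1 was 1.23 and 0.984 in mutant against 1.18 and 1.16 in wild-type. Col3a1 over Col1a1 was 1.77 and 1.22 in mutant against 0.928 and 1.42 in wild-type. Both were higher in mutant at E12.0 and lower at E12.5, so that order did not hold there. Of the other chain ratios taken, Col6a1 over Col6a2 and Col5a2 over Col5a1 were also higher in both mutant libraries at E17.5, and the rest overlapped. No test was run on these ratios, and the share of other gene ratios with that order was not counted. The 2 ratios to Col1a1 share a denominator, so they are not independent.

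Type V chains co-assemble with type I and set fibril width, and their time course was flatter. Col5a2 had 9.39 and 15.04 FPKM in mutant early libraries against 9.63 and 13.6 FPKM in wild-type early libraries, and 15.2 and 13.7 FPKM in mutant E17.5 libraries against 14.8 and 11.7 FPKM in wild-type E17.5 libraries. Col5a1 had 3.43 and 3.88 FPKM in mutant early libraries against 3.35 and 3.31 FPKM in wild-type early libraries, and 6.54 and 5.55 FPKM in mutant E17.5 libraries against 6.92 and 5.17 FPKM in wild-type E17.5 libraries. Col5a2 was the fifth most abundant collagen in all 4 early libraries, ahead of every other fibrillar chain. Col27a1, a minor fibrillar chain of the growing skeleton, had 0.523 and 0.691 FPKM in mutant early libraries against 0.734 and 0.429 FPKM in wild-type early libraries, and 1.22 and 1.02 FPKM in mutant E17.5 libraries against 1.26 and 1.12 FPKM in wild-type E17.5 libraries. Early levels of Col5a2 were thus well above those of Col1a1, Col1a2 and Col3a1 in every library, while Col5a1 was above them by less, 3.35 against 3.28 FPKM for Col1a2 in the wild-type E12.0 library. The genotypes overlapped for Col5a2, Col5a1 and Col27a1 at E17.5.

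The letters upstream of Col3a1 are shown because it had the highest level of any collagen in both mutant libraries at E17.5 and between 2.58 and 2.89 FPKM early. They are the 250 bases before its annotated start (RefSeq, GRCm38.p6, chr1:45311288-45311537, plus strand), read 5′ to 3′.
Col3a1: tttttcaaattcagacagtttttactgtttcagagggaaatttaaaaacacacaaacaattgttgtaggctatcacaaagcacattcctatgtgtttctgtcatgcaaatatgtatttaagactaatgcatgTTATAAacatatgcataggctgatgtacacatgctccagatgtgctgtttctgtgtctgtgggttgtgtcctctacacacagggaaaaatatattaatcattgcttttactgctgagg
The capitals mark TATAA and its overlapping reverse complement TTATA. For contrast, the window of Col18a1, a chain that was lower at E17.5, is given for the start that lies farther upstream, cut back to the 232 bases that precede annotated exon (RefSeq, GRCm38.p6, chr10:77166549-77166780, minus strand).
Col18a1: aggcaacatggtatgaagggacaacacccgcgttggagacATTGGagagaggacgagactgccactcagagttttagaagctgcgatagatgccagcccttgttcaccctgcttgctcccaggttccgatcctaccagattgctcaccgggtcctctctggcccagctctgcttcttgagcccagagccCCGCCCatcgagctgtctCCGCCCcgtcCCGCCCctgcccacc
Here the capitals mark CCAAT, found as ATTGG on the other strand, and GGGCGG, found as CCGCCC. Among all 32851 promoter windows of 250 bases, TATAA was found on either strand in 22.8%, CCAAT in 33.8% and GGGCGG in 32.7%. Promoter entries were found for 35 of the 44 collagens, in 38 windows, and of these 7 held TATAA, 13 held CCAAT and 22 held GGGCGG. A match is a run of letters in the window and nothing more.

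No fibrillar collagen passed the test between genotypes. Values were compared as log2 of FPKM + 1 with limma, and p was adjusted by the Benjamini-Hochberg method over all genes tested, with a threshold of 0.05. At E17.5, where 0.00756% of 13235 genes passed, 0 of the 6 fibrillar chains did, and 0 of all 30 collagens did. The differences (mutant minus wild-type) were 0.37 for Col3a1 (SE 0.300, adjusted p = 0.713), 0.12 for Col1a2 (SE 0.288, adjusted p = 0.895) and -0.19 for Col1a1 (SE 0.257, adjusted p = 0.805). Without the wild-type library of replicate 2 the value of Col3a1 was -0.02, with both mutant libraries set against wild-type replicate 1 alone. With replicate number as a block it stayed at 0.37 (SE 0.0699, adjusted p = 0.103, limma), though the labels do not pair the libraries. The median over the 6 fibrillar chains was 0.06, beside 0.0028 over all genes tested, and its sign turned to -0.13 without the wild-type library of replicate 2, to -0.11 without the mutant library of replicate 1 and to -0.0002 without a filter. At the early stages, where 0.0335% of 11952 genes passed, 0 of the 5 tested fibrillar chains did, with a median of -0.02 (0.0522 with a filter at 5 FPKM) beside 0.0086 over all genes. Col1a2 lay below wild-type at both early stages, with differences of -0.57 for E12.0 and -0.11 for E12.5, and its difference over both was -0.34 (SE 0.195, adjusted p = 0.976).

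Markers of meninges and mesenchyme were likewise low early and high at E17.5, and whether fewer cells of a type or less RNA per cell lies behind a level cannot be told apart in bulk tissue. The 15 markers summed to 4.53 and 6.36 FPKM in mutant early libraries and 6.66 and 5.78 FPKM in wild-type early libraries. At E17.5 they summed to 143 and 121 FPKM in mutant libraries and 120 and 77.2 FPKM in wild-type libraries. All 14 tested markers had a positive difference at E17.5, as did 6751 of all 13235 genes tested. The median of the markers was 0.35, beside 0.0028 over all genes. By limma 5 of the 14 had an unadjusted p under 0.05, beside 5.7% of all genes, and 0 passed the adjusted threshold. Dcn, a proteoglycan that binds collagen fibrils, had 30.1 and 29.3 FPKM in mutant E17.5 libraries against 22.6 and 13.4 FPKM in wild-type E17.5 libraries, with a difference of 0.74 (SE 0.220, adjusted p = 0.689). The part of the marker level in the collagen values was not tested.

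Basement membrane chains were the largest class early and stayed high. Col4a1 and Col4a2, which together form the type IV network of nearly all basement membranes, were both higher at E17.5, and the genotypes overlapped there. Col4a1 had 19.7 and 28.3 FPKM in mutant early libraries against 16.1 and 28.8 FPKM in wild-type early libraries, and 57.2 and 46.5 FPKM in mutant E17.5 libraries against 50.6 and 42.5 FPKM in wild-type E17.5 libraries. Col4a2 had 11.5 and 16.4 FPKM in mutant early libraries against 12.9 and 16.3 FPKM in wild-type early libraries, and 34.9 and 28.4 FPKM in mutant E17.5 libraries against 29.6 and 26.0 FPKM in wild-type E17.5 libraries. The E17.5 means were 2.12 and 2.09 times the early means.

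The genes of this pair lie head to head on chromosome 8, with annotated starts that overlap by 22 bases in GRCm38. Their ratio, Col4a1 over Col4a2 per length, was 1.72 and 1.73 in mutant early libraries against 1.25 and 1.77 in wild-type early libraries, and 1.64 and 1.63 in mutant E17.5 libraries against 1.71 and 1.63 in wild-type E17.5 libraries. Of the 8 libraries, 7 lay between 1.63 and 1.77, and the wild-type E12.0 library lay at 1.25. A further head-to-head pair, Col4a5 and Col4a6 on chromosome X, has starts 1343 bases apart. Col4a5, a chain of smooth muscle and kidney basement membranes, had 3.19 and 3.87 FPKM in mutant early libraries against 2.72 and 3.72 FPKM in wild-type early libraries, and 6.62 and 5.49 FPKM in mutant E17.5 libraries against 6.57 and 5.63 FPKM in wild-type E17.5 libraries, and Col4a6, its partner, had 0.640 and 1.08 FPKM in mutant early libraries against 0.962 and 0.935 FPKM in wild-type early libraries, and 2.24 and 2.06 FPKM in mutant E17.5 libraries against 2.25 and 1.68 FPKM in wild-type E17.5 libraries. Their ratio varied more, between 2.66 and 4.99 over the 8 libraries.

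Col18a1, whose end fragment is endostatin, was among the 4 most abundant collagens in every early library and ranked between 11 and 14 at E17.5. It had 17.2 and 20.0 FPKM in mutant early libraries against 18.3 and 15.9 FPKM in wild-type early libraries, and 9.43 and 9.29 FPKM in mutant E17.5 libraries against 9.10 and 7.03 FPKM in wild-type E17.5 libraries. Every E17.5 value was below every early value. At E17.5 both mutant values were above both wild-type values, which made it 1 of 30 collagens with that order, where 20.9% of all genes tested had it. The difference was 0.20 (SE 0.115, adjusted p = 0.689), and it was 0.0362 without the wild-type library of replicate 2 and 0.37 without that of replicate 1. The form that starts at the outer promoter, whose upstream letters are printed above, carried between 94.3% and 96.9% of the gene's FPKM at E17.5. Its relative Col15a1 had 0.472 and 0.699 FPKM in mutant early libraries against 1.18 and 0.702 FPKM in wild-type early libraries, and 1.70 and 1.68 FPKM in mutant E17.5 libraries against 1.81 and 1.63 FPKM in wild-type E17.5 libraries.

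Between genotypes, 0 of 6 tested basement membrane chains passed at E17.5 and 0 of 4 at the early stages. At E17.5 the differences were 0.15 for Col4a1 (SE 0.124, adjusted p = 0.717) and 0.18 for Col4a2 (SE 0.112, adjusted p = 0.691), and the class median was 0.12. With a library left out these ran from 0.0019 to 0.30, from 0.0324 to 0.32 and from -0.0087 to 0.25, the median turning sign without the wild-type library of replicate 2. At the early stages the class median was 0.11, and it was 0.0057 when small RNA genes were left out and -0.0231 without a filter on low values. Endothelial markers (12 genes) summed to 161 and 144 FPKM in mutant E17.5 libraries against 148 and 132 FPKM in wild-type E17.5 libraries. A positive difference was found for 11 of the 12, beside 6751 of all 13235 genes tested, with 0 of the 12 past the threshold. Markers of pericytes and smooth muscle (10 genes) summed to 56.5 and 49.2 FPKM in mutant E17.5 libraries against 52.5 and 46.9 FPKM in wild-type E17.5 libraries. The part of either in the type IV levels was not tested.

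Among the cartilage collagens, a pair of chains stood in opposite order between genotypes at the 2 ages. Col2a1 was above wild-type in the mutant at both early stages and below it at E17.5 in both libraries, and Col9a3 had the same order at E12.0 and E17.5, with next to no gap at E12.5. Among all genes tested, 25.9% were above wild-type at both early stages and 22.2% were below it in both E17.5 libraries. The share of genes with both orders was not counted. No cartilage collagen passed the threshold in any of the 4 comparisons. Col2a1 had 17.8 and 25.6 FPKM in mutant early libraries against 10.7 and 17.2 FPKM in wild-type early libraries, which put mutant above wild-type at each early stage. At E17.5 it had 11.3 and 9.54 FPKM in mutant libraries against 13.2 and 12.7 FPKM in wild-type libraries, and there both mutant values were below both wild-type values.

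The early difference of Col2a1 was 0.68 (E12.0) and 0.55 (E12.5 alone), and over both stages 0.61 (SE 0.125, adjusted p = 0.976, limma). On the scale of log2 of FPKM + 1, 0 of the 18 collagens tested early were 2-fold or more apart at either stage, where 0.72% of all genes were at least 2-fold higher in the mutant at E12.0, 1.83% lower, and at E12.5 0.167% higher and 0.535% lower. At E17.5 the difference was -0.29 (SE 0.0889, adjusted p = 0.689). The test of the difference between those 2 genotype effects (E17.5 minus early) gave -0.90 (95% interval -1.23 to -0.57, adjusted p = 0.749), where 0.032% of 12519 genes passed the adjusted threshold and 3.95% had p under 0.05. The early value depends on how spread is estimated, since the 4 early libraries leave 1 residual degree of freedom. With spread taken from all 8 libraries, in practice from the E17.5 replicates, the early difference of Col2a1 passed with an adjusted p of 0.0428, and so did 5.68% of all genes. Over all alternatives its adjusted p ran from 0.0338 to 1.

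Col9a3, a chain of the type IX collagen that coats type II fibrils, had 2.25 and 4.97 FPKM in mutant early libraries against 1.03 and 4.93 FPKM in wild-type early libraries. On the log2 scale the gap between genotypes was thus 0.68 for E12.0 but 0.01 for E12.5. At E17.5 it had 7.38 and 7.72 FPKM in mutant libraries against 9.20 and 8.96 FPKM in wild-type libraries, with both mutant values below both wild-type values. The difference was -0.24 at E17.5 (SE 0.0622, adjusted p = 0.689) and 0.34 early (SE 0.219, adjusted p = 0.976), and the test between the ages gave -0.58 (SE 0.222, adjusted p = 0.749). With spread from all 8 libraries the early difference passed with an adjusted p of 0.0496. With either E12.5 library left out, so that E12.0 alone gives the value and E17.5 the spread, the early difference was 0.68 in both genes, with adjusted p of 0.0338 and 0.0343 for Col2a1 and 0.0147 and 0.0144 for Col9a3, and 21.1% and 21% of all genes passed there. The test between the ages then gave -0.97 for Col2a1 and -0.92 for Col9a3, past the threshold in both, as in 9.82% and 9.72% of all genes. With either E12.0 library left out, adjusted p was 0.517 and 0.513 for Col2a1 and 0.981 in both cases for Col9a3.

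**Figure D3:**
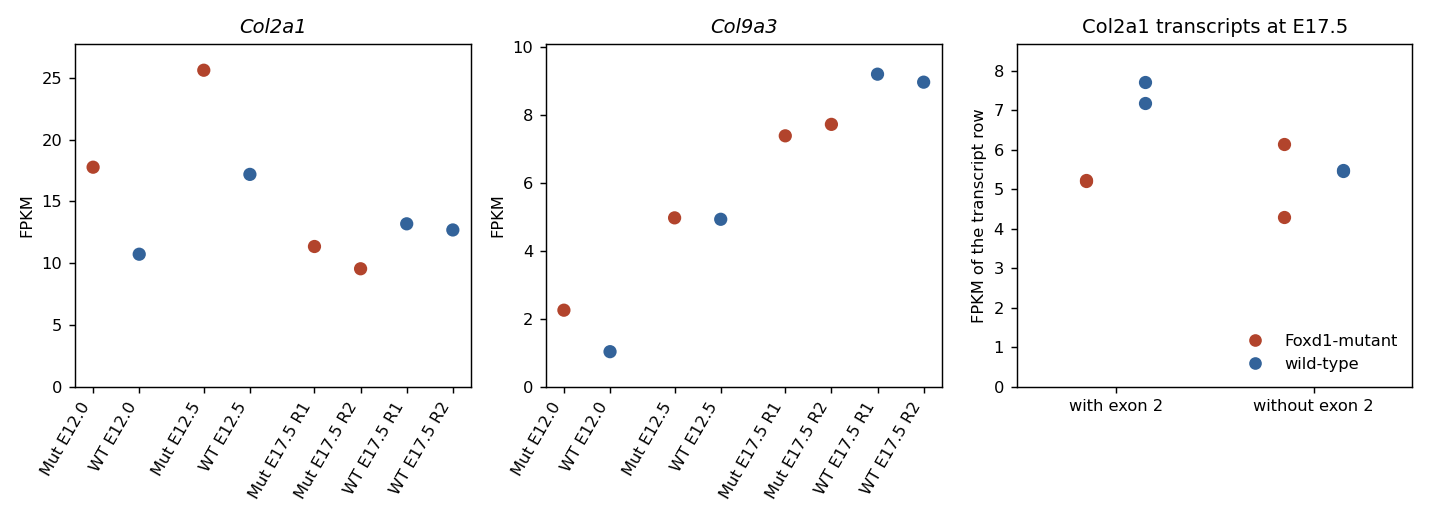
Levels (FPKM) of Col2a1 and Col9a3 in each of the 8 libraries, and of the transcript rows of Col2a1 with and without exon 2 in the 4 E17.5 libraries, with mutant points in red and wild-type points in blue. The 2 mutant values of the row with exon 2 lie at 5.21 and 5.24 FPKM, both below the wild-type values of 7.72 and 7.19 FPKM, while the row without it has 6.14 and 4.30 FPKM in mutant around wild-type values of 5.46 and 5.49 FPKM.

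The E17.5 tables list transcripts, and for Col2a1 they hold the form with exon 2 and the form without it. The form with exon 2 is known from tissue before cartilage and outside it, and the form without it from mature cartilage. The row with exon 2 had 5.21 and 5.24 FPKM in mutant libraries against 7.72 and 7.19 FPKM in wild-type libraries, and the row without it had 6.14 and 4.30 FPKM in mutant against 5.46 and 5.49 FPKM in wild-type. The difference was -0.44 for the row with exon 2 (SE 0.0783, adjusted p = 0.748) and -0.07 for the row without it (SE 0.159, adjusted p = 0.897), and 0 of 16564 rows tested passed. The split between the 2 forms is the authors' estimate from reads that both forms share for the most part. The exon itself is shown because the row that carries it held the larger gap between genotypes (GENCODE M21, GRCm38, chr15:98000403-98000606, minus strand).
Col2a1 exon 2: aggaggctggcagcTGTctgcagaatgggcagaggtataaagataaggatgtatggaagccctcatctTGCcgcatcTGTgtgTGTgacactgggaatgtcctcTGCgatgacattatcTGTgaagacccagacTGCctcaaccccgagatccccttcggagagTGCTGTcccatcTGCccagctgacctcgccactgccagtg
It is 204 bases long, a whole number of codons, so the reading frame is kept with or without it, and the capitals mark its 10 cysteine codons. The cysteine-rich module it encodes is known to bind bone morphogenetic proteins.

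The other chains of this class did not share that order. Col9a2 had 2.65 and 4.14 FPKM in mutant early libraries against 1.84 and 4.59 FPKM in wild-type early libraries, and 15.2 and 10.8 FPKM in mutant E17.5 libraries against 14.8 and 14.1 FPKM in wild-type E17.5 libraries, and the mutant library of replicate 2 was the lowest at E17.5. Col11a1, which starts type II fibrils in cartilage, had 4.77 and 6.70 FPKM in mutant early libraries against 3.999 and 5.33 FPKM in wild-type early libraries, and 7.18 and 7.31 FPKM in mutant E17.5 libraries against 7.37 and 6.31 FPKM in wild-type E17.5 libraries. Col11a2 had 1.54 and 2.63 FPKM in mutant early libraries against 1.91 and 2.44 FPKM in wild-type early libraries, and 3.08 and 2.20 FPKM in mutant E17.5 libraries against 2.94 and 3.28 FPKM in wild-type E17.5 libraries. Col11a1 lay above wild-type in the mutant at both early stages, with a difference of 0.24 (SE 0.146, adjusted p = 0.976), and its E17.5 values overlapped.

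Col9a1 had 0.128 and 0.259 FPKM in mutant early libraries against 0.285 and 0.197 FPKM in wild-type early libraries, and 1.57 and 1.17 FPKM in mutant E17.5 libraries against 1.47 and 1.55 FPKM in wild-type E17.5 libraries. Its shorter form carried 73.5% and 66.1% of its FPKM in mutant E17.5 libraries against 60.3% and 46.7% in wild-type E17.5 libraries, at levels too low for a test of the rows. The class median was 0.24 over 5 chains early and -0.17 over 6 chains at E17.5, beside 0.0086 and 0.0028 over all genes tested. The early median was 0.078 with either E12.0 library left out, 0.36 with either E12.5 library left out, 0.12 without a filter, 0.43 with a filter at 5 FPKM, 0.14 at a pseudocount of 5 and 0.16 with small RNA genes left out. In the test between the ages all 5 chains had a negative value, with a median of -0.28 beside 0.0015 over all genes, and 0 passed. At E17.5 this sign rests on 1 library, since without the mutant library of replicate 2 the class median is 0.01.

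Genes that define cartilage were low in all libraries. The 8 markers of cartilage found summed to 0.918 and 1.26 FPKM in mutant early libraries and 0.785 and 0.670 FPKM in wild-type early libraries, and to 5.72 and 5.46 FPKM in mutant E17.5 libraries and 5.601 and 5.12 FPKM in wild-type E17.5 libraries. Acan, the main cartilage proteoglycan, had 0.0147 and 0.0290 FPKM in mutant early libraries against 0 and 0.0505 FPKM in wild-type early libraries, and 0.629 and 0.385 FPKM in mutant E17.5 libraries against 0.565 and 0.631 FPKM in wild-type E17.5 libraries. Matn1 was listed at 0 in all 4 early libraries. At E17.5 it had 0.388 and 0.0899 FPKM in mutant libraries against 0.519 and 0.504 FPKM in wild-type libraries. Col10a1 had 0.464 and 0.122 FPKM in mutant against 0.515 and 0.4996 FPKM in wild-type there. Both genes, under the filter for the test, had both mutant values below both wild-type values, as did 22.2% of all genes tested. The 2 cartilage markers tested at E17.5, Lect1 and Matn4, had positive differences. Col2a1 was thus at 10.7 FPKM or more in early libraries in which Acan did not pass 0.0505 FPKM.

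The type VI chains Col6a1, Col6a2 and Col6a3, which form beaded microfilaments around cells in connective tissue, were under 1 FPKM in every early library and between 4.31 and 16.3 FPKM at E17.5. Col6a1 had 0.0968 and 0.107 FPKM in mutant early libraries against 0.486 and 0.224 FPKM in wild-type early libraries, and 16.3 and 9.80 FPKM in mutant E17.5 libraries against 14.0 and 8.99 FPKM in wild-type E17.5 libraries. Col6a2 had 0.385 and 0.373 FPKM in mutant early libraries against 0.747 and 0.566 FPKM in wild-type early libraries, and 13.5 and 7.90 FPKM in mutant E17.5 libraries against 12.48 and 8.03 FPKM in wild-type E17.5 libraries. Col6a3 had 0.0580 and 0.109 FPKM in mutant early libraries against 0.0783 and 0.142 FPKM in wild-type early libraries, and 6.29 and 5.36 FPKM in mutant E17.5 libraries against 6.37 and 4.31 FPKM in wild-type E17.5 libraries. The E17.5 means were 53.7, 20.2 and 57.6 times the early means, and early values under 1 FPKM make these ratios imprecise. Col6a1, Col6a2 and Col6a3 were each lower in the mutant at both early stages, at levels below the filter for the test. That order was not particular to them. Col4a4, Col6a6, Col7a1, Col8a1, Col8a2, Col10a1, Col12a1 and Col15a1, also below the filter, had it too, as did 21.8% of all genes tested.

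The short chain types of vessel wall and cornea had a like time course. Col8a2 had 0.0473 and 0.0615 FPKM in mutant early libraries against 0.128 and 0.0781 FPKM in wild-type early libraries, and 2.91 and 2.74 FPKM in mutant E17.5 libraries against 3.24 and 2.61 FPKM in wild-type E17.5 libraries. Col8a1 had 0.0843 and 0.156 FPKM in mutant early libraries against 0.0985 and 0.203 FPKM in wild-type early libraries, and 1.66 and 3.83 FPKM in mutant E17.5 libraries against 2.24 and 1.49 FPKM in wild-type E17.5 libraries, and here the mutant library of replicate 2 stood above the other 3. Without that library the difference of Col8a1 is -0.09 in place of 0.33 (SE 0.292, adjusted p = 0.722). Of the 5 tested chains of this class, 4 had higher and 1 lower values in mutant tissue at E17.5, with a median of 0.12. In the test between the ages 0 of the 5 passed. All 5 were under a mean of 1 FPKM early and entered that test only through their E17.5 levels, so the signs of their values are not read.

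Among the FACIT types, which decorate fibrils, Col22a1 was the only 1 of 6 with an early mean of at least 1 FPKM. This chain of tissue junctions such as that of muscle and tendon had 5.54 and 7.91 FPKM in mutant early libraries against 4.50 and 6.27 FPKM in wild-type early libraries, and 3.88 and 3.42 FPKM in mutant E17.5 libraries against 4.01 and 3.52 FPKM in wild-type E17.5 libraries. All 4 E17.5 values were below all early values, and the mutant was above wild-type at both early stages, with a difference of 0.27 (SE 0.141, adjusted p = 0.976). Col12a1 had 0.661 and 0.846 FPKM in mutant early libraries against 0.997 and 0.924 FPKM in wild-type early libraries, and 5.12 and 4.28 FPKM in mutant E17.5 libraries against 5.94 and 3.99 FPKM in wild-type E17.5 libraries. Col16a1 had 0.170 and 0.204 FPKM in mutant early libraries against 0.130 and 0.291 FPKM in wild-type early libraries, and 3.59 and 3.09 FPKM in mutant E17.5 libraries against 4.18 and 3.09 FPKM in wild-type E17.5 libraries. Col14a1 had 0.192 and 0.261 FPKM in mutant early libraries against 0.137 and 0.398 FPKM in wild-type early libraries, and 1.25 and 1.13 FPKM in mutant E17.5 libraries against 1.54 and 1.11 FPKM in wild-type E17.5 libraries, and for these 3 the genotypes overlapped at E17.5. Markers of skeletal muscle (8 genes) summed to 0.735 and 1.24 FPKM in mutant early libraries and 0.569 and 1.43 FPKM in wild-type early libraries. At E17.5 they summed to 18.5 and 16.7 FPKM in mutant libraries and 19.3 and 28.9 FPKM in wild-type libraries, and their part in the FACIT levels was not tested.

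The transmembrane collagens stay on the cell surface, and Col25a1, which motor axons need to innervate muscle in the mouse, is made by neurons. It had 1.69 and 1.58 FPKM in mutant early libraries against 1.24 and 2.13 FPKM in wild-type early libraries. At E17.5 it had 7.29 and 6.90 FPKM in mutant libraries against 8.20 and 8.03 FPKM in wild-type libraries, with both mutant values below both wild-type values. The difference was -0.17 (SE 0.0641, adjusted p = 0.689). Col23a1 had 1.40 and 0.958 FPKM in mutant early libraries against 0.870 and 1.24 FPKM in wild-type early libraries, and 5.83 and 5.06 FPKM in mutant E17.5 libraries against 5.46 and 4.30 FPKM in wild-type E17.5 libraries. Col26a1, a short collagen first described in testis and ovary, had 1.19 and 1.87 FPKM in mutant early libraries against 1.76 and 2.31 FPKM in wild-type early libraries, and 21.1 and 16.1 FPKM in mutant E17.5 libraries against 19.7 and 16.96 FPKM in wild-type E17.5 libraries. It was the sixth most abundant collagen in all 4 E17.5 libraries, at 10.3 times its early mean, and it lay below wild-type in the mutant at both early stages (difference -0.27, SE 0.174, adjusted p = 0.976).

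Over the whole family, 0 of 30 collagens passed the adjusted threshold at E17.5, 0 of 18 at the early stages, 0 of 27 over all stages, where 0% of 12519 genes passed, and 0 of 27 in the test between the ages. At an unadjusted p under 0.05 there were 3 of 30 at E17.5 (Col9a3, Col2a1 and Col25a1), beside 5.7% of all genes, and 1 of 18 early (Col2a1), beside 1.41%. Over all stages there were 0 of 27, and between the ages 2 of 27 (Col2a1 and Col9a3), beside 3.95%. The smallest adjusted p of any collagen was 0.689 at E17.5, 0.976 early, 0.749 over all stages and 0.749 between the ages. Both mutant values lay below both wild-type values at E17.5 for Col2a1, Col9a3 and Col25a1 alone, 3 of 30, against 22.2% of all genes tested. Mutant was above wild-type at both early stages for 6 of 18 (Col2a1, Col4a5, Col5a1, Col9a3, Col11a1 and Col22a1), against 25.9% of all genes, and below at both for 2 of 18 (Col1a2 and Col26a1), against 21.8%. The median difference over the tested collagens was 0.09 early (-0.0234 when small RNA genes were left out and -0.0251 without a filter) and -0.0017 at E17.5.

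**Figure D4:**
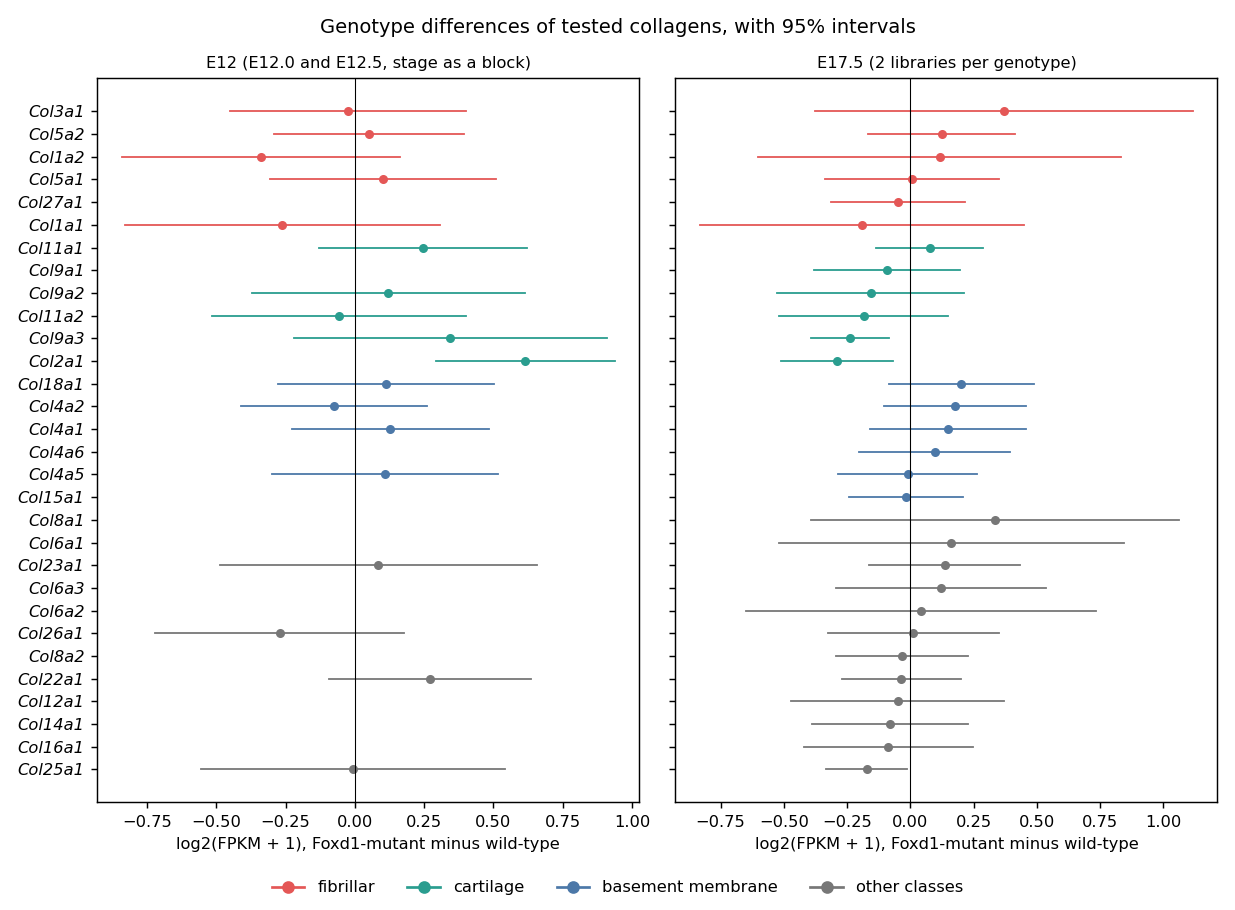
Genotype difference of each tested collagen (log2 of FPKM + 1, Foxd1-mutant minus wild-type, horizontal axis), early at left and E17.5 at right, coloured by class, with limma's 95% intervals as lines. Early, the interval of Col2a1 alone lies off 0, and at E17.5 those of Col2a1, Col9a3 and Col25a1 do, all 3 on the side of lower mutant values, while 0 collagens passed the adjusted threshold in either panel.

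At E17.5 most collagens were ordered by replicate number. Replicate 1 was above replicate 2 in both genotypes for 25 of 30 collagens, against 25.5% of all genes tested, and the reverse held for 0 of 30. All 6 fibrillar and all 6 basement membrane chains had that order, and 2 of 6 cartilage chains did. The median of replicate 1 minus replicate 2 on the log2 scale was 0.40 in mutant and 0.47 in wild-type for fibrillar chains, and 0.16 in mutant and 0.22 in wild-type for basement membrane chains. Meningeal and mesenchymal markers had the order in 13 of 14 cases, and Slc6a13, a transporter of meningeal cells, had 18.1 and 11.03 FPKM in mutant E17.5 libraries against 17.02 and 8.97 FPKM in wild-type E17.5 libraries. The order was also found in 6 of 8 pericyte and smooth muscle markers, 7 of 12 endothelial markers and 6 of 10 hypothalamic markers. It was found in 0 of 8 telencephalic, 0 of 5 skeletal muscle and 0 of 2 cartilage markers. Whether the cell content of the tissue differed between the libraries was not tested.

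**Figure D5:**
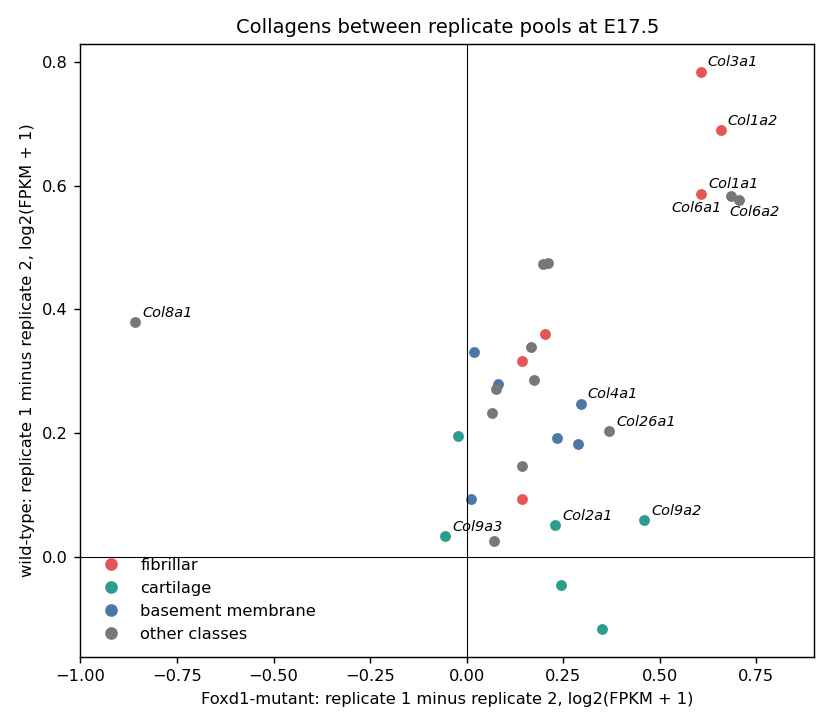
Replicate 1 minus replicate 2 at E17.5 for each of the 30 tested collagens, in log2 of FPKM + 1, in Foxd1-mutant (horizontal axis) and in wild-type (vertical axis), coloured by class. Of the 30 points, 25 lie above 0 on both axes, where replicate 1 is above replicate 2 in both genotypes, and Col8a1 stands apart at the left.

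Genes that act on collagen were read beside the family, from 5 lists. Of the enzymes and chaperones that modify and fold collagen chains, 13 of 14 were tested at E17.5, 9 with higher and 4 with lower values in the mutant, and early 8 were higher and 3 lower of 11. Serpinh1, the chaperone that binds folded procollagen, had 51.9 and 68.9 FPKM in mutant early libraries against 53.6 and 67.0 FPKM in wild-type early libraries, and 81.9 and 72.1 FPKM in mutant E17.5 libraries against 81.3 and 67.6 FPKM in wild-type E17.5 libraries. The largest early difference of that list was 0.43 in Crtap (SE 0.175, adjusted p = 0.976), a subunit of the prolyl 3-hydroxylase complex, which had 3.07 and 3.53 FPKM in mutant early libraries against 1.72 and 2.74 FPKM in wild-type early libraries. The early and E17.5 medians of the list were 0.01 and 0.05, and 0 members passed.

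Of the genes of procollagen processing and cross-linking, 13 of 15 were tested at E17.5, with 7 higher and 6 lower in the mutant and a median of 0.08. Lox, which cross-links collagen and elastin, had 0.337 and 0.766 FPKM in mutant early libraries against 0.692 and 0.478 FPKM in wild-type early libraries, and 9.82 and 7.95 FPKM in mutant E17.5 libraries against 8.26 and 4.58 FPKM in wild-type E17.5 libraries, with a difference of 0.45 at E17.5 (SE 0.241, adjusted p = 0.689). Of the collagen receptors, 6 of 10 were tested at E17.5, 4 higher and 2 lower. Ddr2, the receptor of fibrillar collagen on mesenchymal cells, had 3.38 and 2.76 FPKM in mutant E17.5 libraries against 2.54 and 1.78 FPKM in wild-type E17.5 libraries, with both mutant values above both wild-type values. Ddr1, its epithelial and neural relative, had 30.4 and 28.0 FPKM in mutant E17.5 libraries against 35.1 and 31.4 FPKM in wild-type E17.5 libraries. The differences were 0.37 for Ddr2 (SE 0.146, adjusted p = 0.689) and -0.18 for Ddr1 (SE 0.0742, adjusted p = 0.689).

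Of the laminins and other partners of type IV collagen, 9 had higher and 4 lower values in mutant tissue at E17.5, with a median of 0.14, and 4 were higher and 5 lower early, with a median of -0.05. Lamb1, a laminin chain, had 10.7 and 11.4 FPKM in mutant E17.5 libraries against 9.92 and 7.64 FPKM in wild-type E17.5 libraries, and its difference was 0.31 (SE 0.119, adjusted p = 0.689). Of the proteases and their inhibitors, 5 were higher and 5 lower at E17.5, and 1 was higher and 6 lower early. Timp2, an inhibitor of collagen-cutting proteases, had 7.91 and 10.99 FPKM in mutant early libraries against 13.2 and 12.8 FPKM in wild-type early libraries, with a difference of -0.44 (SE 0.165, adjusted p = 0.976). In all 5 lists 0 genes passed the adjusted threshold in any of the 4 comparisons.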

How the data were processed

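The deposited FPKM values were used as given. The genome build (mm9), the aligner TopHat and Cufflinks are those listed in the submitters' processing notes, with versions not given in the sources used here. Libraries were paired-end with 100 cycles on a HiSeq 2500, per the labels' protocols. The early stages have 1 row per gene and E17.5 has 1 row per transcript, per the file headers, and rows were summed by symbol. The members and lists were chosen with earlier results of these data known. Genes that averaged 1 FPKM or more across a comparison's libraries were tested on log2(FPKM + 1) with limma 3.58.1 (R 4.3.3) and a variance trend, two-sided, with Benjamini-Hochberg adjustment over all genes. The comparisons were E17.5 (4 libraries), the early stages with stage as a block (4 libraries), all stages with stage as a block (8 libraries) and the genotype effect at E17.5 minus that at the early stages (8 libraries). The test was checked on simulated data. FPKM without counts allowed no count test. A log2 difference with this pseudocount understates the change of low genes. Members with a mean of at least 1 FPKM at either age were named, the others counted, and from each companion list those with the largest difference. Alternatives changed the pseudocount, filter, scale, joining of rows, trend, blocks, source of spread and libraries. The test of single transcript rows was added after the data were seen. Promoters were RefSeq windows and the exon came from GENCODE M21, both GRCm38, with coordinates not taken from the deposited tables. Python 3.11.15, numpy 2.4.6, pandas 2.3.3 and matplotlib 3.10.9 were used.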

Additional observations from a re-analysis of the deposited data

How the results depend on the processing

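The count of collagens past the adjusted threshold was 0 under all alternatives at E17.5 and over all stages. At the early stages it was 2 (Col2a1 and Col9a3) with spread taken from all libraries, and between 0 and 2 with a library left out, the 2 coming when either E12.5 library was left out. Between the ages it was also between 0 and 2 with a library left out, on the same omissions, with values of -0.97 for Col2a1 (adjusted p 0.0398 and 0.0396) and -0.92 for Col9a3 (0.0247 and 0.0229). Those fits take all early information from E12.0. With replicate numbers as a replicate block at E17.5, 0 collagens and 16 of all genes passed, against 1 of all genes without it. Deviations of the libraries with the same number had a correlation of 0.028, and the labels do not pair them. Without stage as a block, 0 collagens passed early.

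Some class medians moved. At E17.5 the cartilage median, -0.17, was -0.10 at a pseudocount of 5 and ran from -0.29 to 0.01 with a library left out, that of all collagens from -0.12 to 0.14, the fibrillar one from -0.13 to 0.23 and the basement membrane one from -0.0087 to 0.25. The early cartilage median ran from 0.078 to 0.36. Early, the fibrillar median was 0.0522 with a filter at 5 FPKM and -0.11 with small RNA genes left out, and ran from -0.0328 to 0.0578 with a library left out. The early basement membrane median was 0.13 at a pseudocount of 0.1, 0.0738 at 5, -0.0231 with no filter, 0.13 with quantile normalization and 0.0057 with small RNA genes left out, and with a library left out it ran from 0.0272 to 0.0415. The early median of all collagens was -0.0251 with no filter and -0.0234 with small RNA genes left out, and ran from 0.0283 to 0.11 with a library left out. Leaving out small RNA genes set the early median of all genes at -0.09, against 0.0086.

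Of 29 named differences, 6 at E12 and E17.5 and 1 between the ages turned sign with a library left out. At E17.5 the ranges were -0.021 to 0.76 for Col3a1, -0.0344 to 0.28 for Col5a2 and -0.0063 to 0.28 for Col23a1 (each negative without the wild-type library of replicate 2), and -0.0939 to 0.76 for Col8a1 and -0.39 to 0.0731 for Col9a2 (each turned without the mutant library of replicate 2). Early, Col1a1 ran from -0.58 to 0.0578, and between the ages Col15a1 ran from -0.0136 to 0.55, each turned when either E12.0 library was left out. The cause was not tested. No other alternative turned a sign among the named differences.

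With 2 libraries per genotype at E17.5 and 1 at each early stage, 95% intervals were wide (from -0.38 to 1.12 for Col3a1 at E17.5), so small differences were not detectable. The share of FPKM in small RNA genes was 9.77% to 24.5% per library, and depth at the early stages was uncertain.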
